A study of Mus musculus with 19 samples.

Results

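The dorsolateral lobe of the mouse prostate was compared between C57BL/6J mice on a high fat diet (HFD) and C57BL/6J mice on a control diet. RNA of the dorsolateral prostate (DLP) was measured on 9 single-sample 3′ expression arrays, 4 from HFD mice and 5 from control mice. Per the labels, all mice were 8 weeks old at the start and ate their diet freely for 12 weeks, with 5 mice in each diet group. The 10 arrays of the ventral prostate (VP), 5 from HFD and 5 from control mice, served only to ask whether a difference was particular to the dorsolateral lobe. The anterior lobe, also mentioned there, was not analysed here. Nothing in the labels ties an array to a mouse, and p-values thus reflect the spread between arrays, which may be partly technical.

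A probe set entered the comparison when it was no hybridization or labelling control and exceeded its array's median on 4 or more of the 9 DLP arrays. This held for 22901 of 45037 probe sets, or 50.8%. Of these, 19623 had a single gene symbol, and together they named 11104 genes. At the edge of the rule, 555 probe sets passed on exactly 4 arrays and had a median log2 level of 1.81, whereas 682 passed on 1 array fewer and had a median of 1.74. Each gene below is given by its probe set with the highest mean over the DLP arrays. Levels are on the log2 scale, where the median of each array was 1.85, and differences are HFD minus control on that scale.

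In the mouse, the dorsolateral lobe is a secretory gland in which tall luminal cells make and release large amounts of protein, resting on basal cells and wrapped in smooth muscle that expels the secretion. Such cells rely on chaperones of the cytosol and of the endoplasmic reticulum (ER) to fold what they secrete. Their sterol supply is held steady by a feedback loop: when sterol in the ER membrane is plentiful, Insig proteins hold back the Scap and SREBP complex, and the enzymes of cholesterol synthesis are transcribed less. Glutathione peroxidases use glutathione to remove hydrogen peroxide and lipid peroxides.

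The labelled lobe was checked against genes known to be restricted to it. Pate14, a secreted protein of the reproductive tract, averaged 11.66 in HFD DLP and 11.91 in control DLP, against 1.11 in HFD VP and 0.74 in control VP. Gsdma, a gasdermin, averaged 8.65 in HFD DLP and 8.52 in control DLP, against 0.77 in HFD VP and 1.12 in control VP. Not every gene listed here as dorsolateral secretory was higher in DLP: Spink1 averaged higher in VP, as given below. None of the 6 seminal vesicle genes on the array passed the filter. The median correlation of an array with the other DLP arrays lay between 0.986 and 0.989. The 3′ minus 5′ difference of the Gapdh control probe sets ranged from -0.54 to -0.35 on HFD arrays and from -0.49 to -0.36 on control arrays. For the actin control probe sets it ranged from 1.35 to 1.52 on HFD arrays and from 1.40 to 1.75 on control arrays, with control DLP 4 the highest.

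Some single arrays stood apart. Control DLP 2, 4 and 5 stood apart from the other 6 arrays on the first principal component, which held 20.5% of the variance, and these same arrays carried high levels of neuronal genes. Control DLP 1 was the highest array for most macrophage markers and for the acute phase protein Lcn2. HFD DLP 2 stood apart from the other HFD arrays in the mean level of genes of the ventral lobe, at 1.00, against -0.68, -0.72 and -0.42, while control arrays ranged from -0.16 to 0.76. Spink1, a secreted trypsin inhibitor, was at 11.58 on that array, against 3.50, 3.64 and 4.07 on the other HFD arrays. In control DLP Spink1 was at 6.96, 11.81, 7.63, 10.21 and 6.34, and in VP it averaged 12.65 on HFD and 12.31 on control arrays. Its diet difference in DLP was -2.89 ± 1.55 (SE), with limma's adjusted p of 0.62 and overlapping groups. Counts of gene lists are therefore given with all 9 arrays and also on the remaining 6 arrays, which leave out control DLP 2, 4 and 5, a choice made after these data were seen. Those 6 are the 4 HFD arrays and only control DLP 1 and 3 as controls. Control DLP 1, itself high in macrophage markers and Lcn2, thus weighs more in those counts.

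No probe set passed limma's adjusted p of 0.05 in the comparison of HFD with control DLP, 0% of 22901, and the smallest adjusted p was 0.0885. At a looser adjusted p of 0.10 there were 2 (0.00873%). Without adjustment, 2040 probe sets had a p under 0.05 (8.91%), of which 1155 were higher (5.04%) and 885 lower (3.86%) on HFD, where 1145 in all would be expected from the threshold alone. By gene, 630 of 11104 were higher (5.67%) and 440 lower (3.96%) at that unadjusted p. The diet groups did not overlap for 230 genes higher on HFD (2.07%) and for 126 lower (1.13%). The mean was higher on HFD for 53.8% of genes, and most differences were small. The median difference over all genes was 0.01, the median of its size was 0.08, and 1% of genes differed by more than 0.52. Of 16 genes that differed by 1 or more, 14 were lower on HFD and 2 higher. The lower ones include Gpx3, but also Spink1, Car3 and the neuronal genes Vip, Stmn2 and Uchl1, all with overlapping groups. Without control DLP 2, 4 and 5 these neuronal genes were higher on HFD. When the 19 arrays of both lobes were fitted together with 1 weight per lobe, 15 probe sets passed (0.0655%), and where this changes a call below it is said. Because no gene passed in the DLP arrays alone, the values that follow are differences with their errors and not calls.

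Gpx3, the secreted selenium-containing glutathione peroxidase named in the title of the series, had the largest difference among genes whose diet groups did not overlap. Its log2 level was 5.89, 5.69, 5.58 and 5.90 on the 4 HFD arrays, against 7.16, 6.60, 7.55, 7.14 and 8.28 on the 5 control arrays. Every HFD array lay below every control array, and the control arrays spread more widely. The means were 5.76 ± 0.16 (SD, n = 4) on HFD and 7.34 ± 0.62 (SD, n = 5) on control. The difference was -1.58 ± 0.24 (SE), or 2.99-fold lower on HFD, with a 95% interval from -2.11 to -1.05. A two-sided exact permutation test of Gpx3 gave p = 0.0159, the smallest that 4 against 5 arrays can give. limma's adjusted p over all probe sets was 0.16, and it was 0.021 with 1 weight per lobe. If the title rests on these arrays, neither test is independent of the choice of Gpx3. In VP the difference was -1.14 ± 0.29 (SE). The difference between lobes was -0.44, with an adjusted p of 0.79 in limma.

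Of the other 5 glutathione peroxidases that passed the filter, none reached an unadjusted p under 0.05 and none had separate diet groups. Gpx1, the abundant cytosolic enzyme, was at 8.53, 8.44, 8.33 and 8.45 on HFD arrays and at 8.30, 8.26, 8.29, 8.35 and 8.47 on control arrays. Its difference of 0.10 ± 0.06 (SE) has a 95% interval from -0.02 to 0.23, and that of Gpx8, an ER-resident member, was 0.10 ± 0.10 (SE). Gpx4, which reduces lipid peroxides in membranes, differed by 0.04 ± 0.05 (SE). Gpx2 and Gpx7 each differed by less than 0.01 in size, with an SE of 0.21 and 0.12. On the remaining 6 arrays Gpx2 differed by -0.48 ± 0.19 (SE), at an unadjusted p under 0.05.

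Among 24 other antioxidant enzymes, 1 was higher at an unadjusted p under 0.05 and none lower, against 5.67% higher and 3.96% lower over all genes. That gene was Gss, glutathione synthetase, at 4.95, 4.95, 4.94 and 5.02 on HFD and 4.72, 4.83, 4.87, 4.74 and 4.78 on control arrays, a difference of 0.18 ± 0.06 (SE) between groups that did not overlap. Of 19 glutathione transferases, 3 were higher and none lower at that p, against the same shares of all genes. Gstt2 was at 4.26, 4.00, 4.20 and 4.18 on HFD arrays, against 3.91, 3.77, 3.74, 3.98 and 3.77 on control arrays. These groups were just apart, with a difference of 0.33 ± 0.08 (SE) and limma's adjusted p of 0.31. Mgst2 differed by 0.30 ± 0.11 (SE) and Gsta4, which conjugates products of lipid peroxidation, by 0.48 ± 0.19 (SE), both with overlapping groups. The median of the transferase list was 0.05, against 0.01 for all genes. On the remaining 6 arrays, no antioxidant enzyme and 4 transferases were higher, and none of either was lower.

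**Figure D1:**
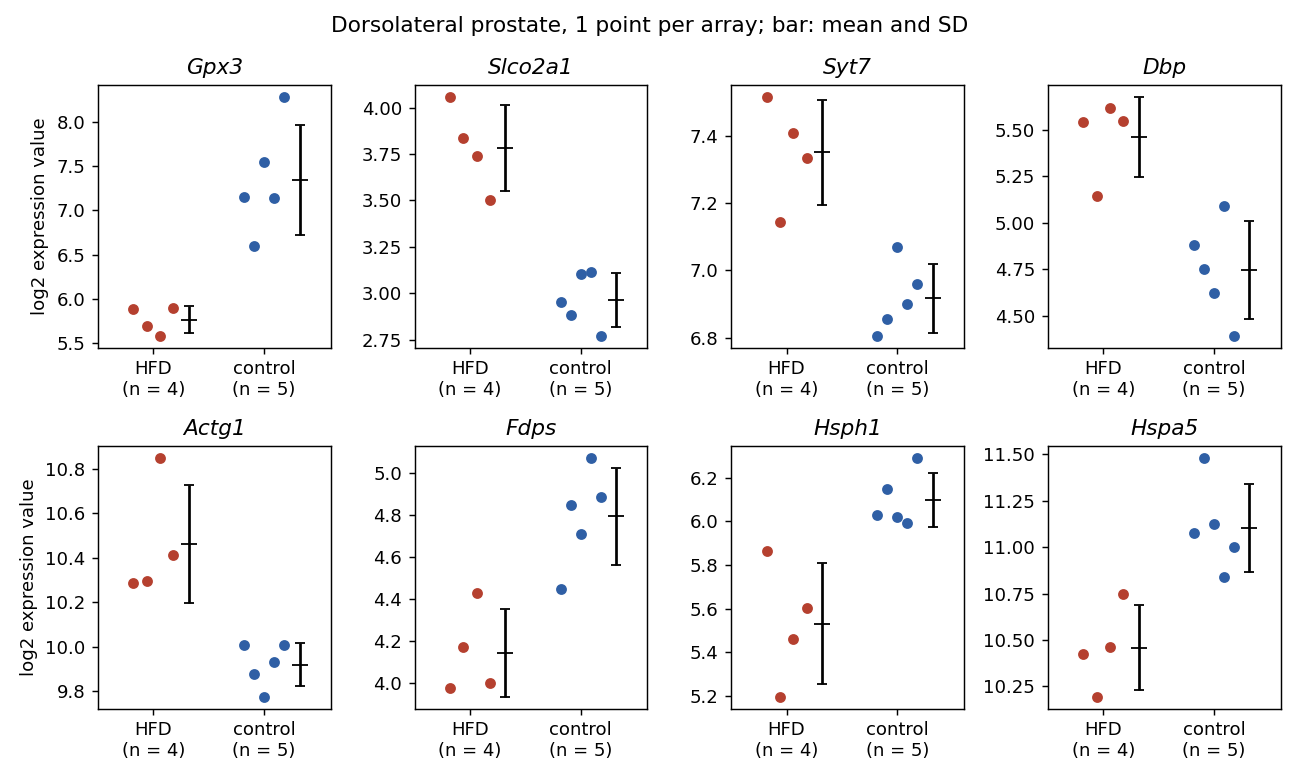
Log2 expression values of 8 genes in the dorsolateral prostate, with 1 point per array (4 HFD arrays in red on the left of each panel, 5 control arrays in blue on the right) and the mean and SD beside them. The diet groups did not overlap in any of the 8 panels, with Gpx3 at 5.58 to 5.90 on HFD and 6.60 to 8.28 on control arrays.

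The genes with the smallest p-values on the higher side had diverse roles. Slco2a1, the transporter that takes up prostaglandins, was at 4.06, 3.83, 3.74 and 3.50 on HFD arrays, against 2.95, 2.88, 3.10, 3.12 and 2.77 on control arrays. The groups were clearly apart. Its difference was 0.82 ± 0.11 (SE), or 1.76-fold, with limma's adjusted p of 0.089 in DLP alone and 0.021 with 1 weight per lobe. All 3 of its probe sets were higher on HFD, by 0.19 to 0.82. It was the 1 member of 9 prostaglandin genes with an unadjusted p under 0.05, against 5.67% higher and 3.96% lower over all genes. On the remaining 6 arrays 1 of the 9 was higher and 1 lower. With control DLP 2, 4 and 5 left out, the Slco2a1 difference was 0.76 ± 0.14 (SE).

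Several others of this group belong to membranes, lipids and the cytoskeleton. Syt7, a calcium sensor of vesicle release, was at 7.52, 7.14, 7.41 and 7.33 on HFD and 6.81, 6.85, 7.07, 6.90 and 6.96 on control arrays. The groups did not overlap, and its 3 probe sets differed by 0.09 to 0.55. The probe set at 0.55 had an adjusted p of 0.089 in limma with DLP alone and 0.047 with 1 weight per lobe. Cers3, a ceramide synthase, averaged 3.71 ± 0.11 (SD, n = 4) on HFD and 3.09 ± 0.23 (SD, n = 5) on control arrays. Cert1, which carries ceramide from the ER to the Golgi, averaged 6.57 ± 0.06 (SD, n = 4) on HFD and 6.25 ± 0.10 (SD, n = 5) on control arrays, but its 3 probe sets disagreed, from -0.11 to 0.32. Perp, a desmosome protein, differed by 0.38 ± 0.08 (SE) and Ifitm10, a small membrane protein, by 0.50 ± 0.08 (SE). Xpa, which recognises damaged DNA in nucleotide excision repair, differed by 0.43 ± 0.08 (SE) in DLP and by 0.58 ± 0.11 (SE) in VP. Nudcd2 differed by 0.34 ± 0.06 (SE) in DLP. For the probe sets of these genes with the highest mean, limma's adjusted p lay between 0.16 and 0.18 in DLP alone, and those of Ifitm10 and Nudcd2 were 0.047 with 1 weight per lobe.

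Actg1, a cytoplasmic actin, was at 10.29, 10.30, 10.85 and 10.41 on HFD arrays, against 10.01, 9.88, 9.77, 9.93 and 10.01 on control arrays. Every HFD array was higher, and the spread within HFD came mostly from array 3. The difference was 0.54 ± 0.10 (SE), with limma's adjusted p of 0.17, or 0.029 with 1 weight per lobe. The probe set is of a type whose probes can match more than 1 transcript, and actins are close relatives, so its identity is uncertain. Of 16 genes of the actin cytoskeleton, 2 were higher and 1 lower at an unadjusted p under 0.05. Over all genes, 5.67% were higher and 3.96% lower. The other higher one was Myh9, non-muscle myosin, with a difference of 0.20 ± 0.06 (SE). The lower one was Ezr, which ties actin to the apical membrane, at -0.16 ± 0.07 (SE), but its second probe set gave 0.07. The remaining 6 arrays gave 3 higher and none lower.

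On the lower side, the genes with the smallest p-values after Gpx3 included 4 of protein folding and sterol handling, taken up with their lists below. Rpl39, a ribosomal protein, was at 3.10, 3.43, 3.12 and 3.23 on HFD arrays, against 3.74, 3.72, 3.95, 3.76 and 3.71 on control arrays. The groups were well apart, with a difference of -0.55 ± 0.09 (SE), but ribosomal protein genes have near-identical pseudogene copies, so the source of this signal is uncertain. Ncald, a neuronal calcium sensor protein, was at 2.93, 2.96, 3.16 and 2.90 on HFD and 3.40, 3.68, 3.36, 3.50 and 3.69 on control arrays. Both of its probe sets were lower, by -0.54 and -0.41, and its adjusted p in limma was 0.021 with 1 weight per lobe. Its 3 highest arrays were control DLP 2, 4 and 5, which also had high neuronal markers, and without them the difference was -0.39 ± 0.11 (SE). Anxa2, a calcium-dependent membrane binding protein, averaged 5.84 ± 0.11 (SD, n = 4) on HFD and 6.23 ± 0.09 (SD, n = 5) on control arrays. Snx16, a sorting nexin of endosomes, differed by -0.36 ± 0.07 (SE), and Fam25c by -0.74 ± 0.15 (SE). limma's adjusted p for these genes lay between 0.16 and 0.18.

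Beyond these, the largest differences among genes with separate groups included Inmt, a methyltransferase, at 0.67 ± 0.18 (SE), Tmem71 at 0.62 ± 0.13 (SE) and Septin4 at 0.52 ± 0.15 (SE). Mfsd4b4 at 0.69, S100a14 at 0.58 and Syndig1 at 0.52 had control means below the array median. Sh3gl3 at -0.58, Iqsec3 at -0.51 and Acvr1c, an activin receptor, at -0.50 had HFD means below it. The size of those 6 differences is therefore uncertain.

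Cholesterol synthesis enzymes were lower on HFD in 7 of the 17 that passed the filter, at an unadjusted p under 0.05, and higher in none, against 3.96% lower over all genes. The mean was lower for 14 of 17, and the list median was -0.17 against 0.01 over all genes. For 3 enzymes the groups did not overlap, whereas 1.13% of all genes were lower without overlap. Those enzymes were Fdps, Cyp51 and Msmo1. Fdps, which makes farnesyl diphosphate, was at 3.98, 4.17, 4.43 and 4.00 on HFD arrays, against 4.45, 4.85, 4.71, 5.07 and 4.89 on control arrays. The highest HFD array lay just under the lowest control array, and the difference was -0.65 ± 0.12 (SE), with limma's adjusted p of 0.16.

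The other enzymes of the pathway are given in the order in which they act. Hmgcs1, which makes HMG-CoA at the start of the pathway, was at 4.85, 4.98, 5.08 and 5.25 on HFD arrays and 5.34, 5.81, 5.03, 5.59 and 5.93 on control arrays. These overlapped, because control DLP 3 was as low as the HFD arrays, and the difference was -0.50 ± 0.16 (SE). Idi1, which makes the second isoprene unit of the pathway, differed by -0.28 ± 0.11 (SE). Fdft1, squalene synthase, differed by -0.42 ± 0.14 (SE) and Sqle, squalene epoxidase, by -0.35 ± 0.09 (SE). Cyp51, the lanosterol demethylase, was at 2.97, 3.20, 3.05 and 3.15 on HFD and 3.24, 3.67, 3.57, 3.60 and 3.41 on control arrays, a difference of -0.41 ± 0.10 (SE). Msmo1, a sterol methyl oxidase, was at 4.36, 4.29, 4.45 and 4.31 on HFD and 4.68, 4.78, 4.48, 4.87 and 4.76 on control arrays, a difference of -0.36 ± 0.08 (SE). Both of these enzymes were lower on every HFD array than on any control array. In contrast Mvk, mevalonate kinase, differed by 0.17 ± 0.11 (SE), Lss by -0.05 ± 0.09 (SE) and Dhcr7 by -0.03 ± 0.17 (SE).

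Averaged over the 17 enzymes after centring each gene, the list level was -0.14, -0.12, -0.10 and -0.07 on the HFD arrays and -0.04, 0.19, -0.05, 0.15 and 0.19 on the control arrays. The 3 high control arrays were control DLP 2, 4 and 5, which also stood apart on the first principal component and in neuronal markers. Without them the list median was -0.07 and 3 enzymes were lower at an unadjusted p under 0.05, against 3.94% of all genes (and 5.73% higher). Fdps then differed by -0.44 ± 0.14 (SE). The part of the neuronal signal in the difference was not tested.

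The sensors of the pathway differed in both directions. Of 13 genes of sterol sensing, uptake and efflux, 3 were higher and 3 lower at an unadjusted p under 0.05. Over all genes, 5.67% were higher and 3.96% lower. Stard4, a cytosolic carrier of cholesterol, was at 3.01, 2.95, 3.03 and 2.93 on HFD and 3.31, 3.38, 3.26, 3.53 and 3.48 on control arrays. These groups were apart, with a difference of -0.41 ± 0.08 (SE), and the second probe set gave -0.30. Insig1, which retains SREBP in the ER and is itself an SREBP target, differed by -0.30 ± 0.09 (SE), and Scap, the SREBP escort, by -0.20 ± 0.08 (SE). The higher genes were Srebf1, which encodes the SREBP1 factors of lipid synthesis, at 0.18 ± 0.06 (SE), Abca1, a cholesterol exporter, at 0.20 ± 0.09 (SE), and Mylip, a ubiquitin ligase that removes lipoprotein receptors, at 0.25 ± 0.10 (SE). Srebf1 was at 5.53, 5.38, 5.51 and 5.48 on HFD and 5.28, 5.21, 5.26, 5.38 and 5.33 on control arrays, just without overlap. Srebf2, which encodes the factor that drives cholesterol synthesis, differed by -0.20 ± 0.14 (SE). The list median was 0.04. On the remaining 6 arrays it was 0.11, with 1 gene higher and 3 lower. With any 1 array left out, 1 to 3 genes were higher and 2 to 4 lower.

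Because enzymes of this pathway are known targets of SREBP, promoter windows from 250 bases before to 50 bases after the RefSeq start were searched on both strands for the sterol response element TCACNCCAC. It was found in 1 of 14 cholesterol enzymes with a window, Hmgcs1, and in 1.44% of all 27025 genes, and in 0 of 9 sterol sensing genes. The Hmgcs1 window, chr13:119690101-119690400 on the plus strand of GRCm38.p6, is shown because it holds the match, printed in capitals, which begins at position -137 from the start site. A match is a description of letters and not a site of binding.
Hmgcs1: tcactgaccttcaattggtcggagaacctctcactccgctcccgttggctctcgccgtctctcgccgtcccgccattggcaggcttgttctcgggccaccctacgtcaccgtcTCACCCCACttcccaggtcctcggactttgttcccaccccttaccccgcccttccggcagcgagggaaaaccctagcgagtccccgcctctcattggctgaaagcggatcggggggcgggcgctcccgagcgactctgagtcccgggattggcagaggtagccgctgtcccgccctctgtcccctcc

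Fatty acid genes differed less. Of 17 genes of fatty acid and triglyceride synthesis, 2 were lower and none higher at an unadjusted p under 0.05, with a median of -0.01. Over all genes, 3.96% were lower and 5.67% higher. Acly, which makes cytosolic acetyl-CoA from citrate, was at 6.60, 6.68, 6.56 and 6.67 on HFD and 6.74, 6.89, 6.79, 6.82 and 6.85 on control arrays. The groups did not overlap, the difference was -0.19 ± 0.05 (SE), and the other 2 probe sets gave -0.08 and -0.03. Lpin1, a phosphatidate phosphatase, differed by -0.20 ± 0.06 (SE), also with separate groups, while its second probe set gave -0.02. Fasn, fatty acid synthase, differed by -0.12 ± 0.08 (SE), and Scd1, a desaturase, by 0.06 ± 0.10 (SE). Among 27 genes of fatty acid oxidation, 1 was higher and 2 lower, and none had separate groups. Acadl differed by -0.14 ± 0.06 (SE) and Acot2 by -0.34 ± 0.14 (SE). Hadh differed by 0.12 ± 0.05 (SE), but its 3 probe sets disagreed, from -0.47 to 0.12. These counts use only the probe set with the highest mean of each gene. Cpt1a, also of fatty acid oxidation, had 2 probe sets that were lower at an unadjusted p under 0.05, by -0.53 and -0.35, with overlapping groups. On the remaining 6 arrays, 1 synthesis gene was lower and none higher, with a median of 0.06, and 2 oxidation genes were higher and 1 lower. With any 1 array left out, 0 to 4 oxidation genes were lower.

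**Figure D2:**
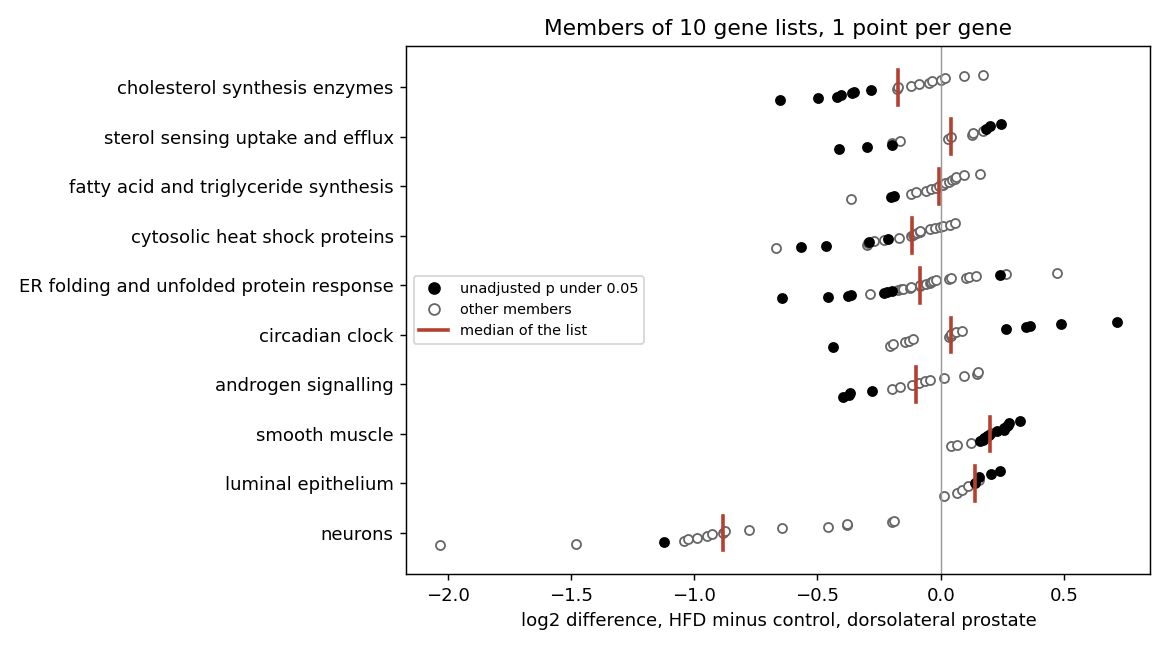
Log2 difference, HFD minus control, of each member of 10 gene lists in the dorsolateral prostate, 1 point per gene, filled where the unadjusted p was under 0.05, with the list median as a red bar. Cholesterol enzymes reach from -0.65 to 0.17, smooth muscle genes all lie above 0, and neuronal genes all lie below 0 when all 9 arrays are used.

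ER chaperones and genes of the unfolded protein response, which matches folding capacity to secretory load, were lower in 7 of 28 genes and higher in 1 at an unadjusted p under 0.05, against 3.96% lower and 5.67% higher over all genes. The list median was -0.09. Hspa5, the ER Hsp70 also called BiP, was at 10.42, 10.19, 10.46 and 10.75 on HFD arrays, against 11.07, 11.48, 11.12, 10.84 and 11.00 on control arrays. The groups did not overlap. The difference was -0.65 ± 0.13 (SE), or 1.56-fold lower, with limma's adjusted p of 0.17, and all 3 probe sets were lower, by -0.65 to -0.48. Leaving out control DLP 2, 4 and 5, it was -0.64 ± 0.13 (SE).

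Its partners in folding followed in smaller steps. Hsp90b1, the ER Hsp90, was at 9.54, 9.76, 10.05 and 10.08 on HFD and 10.25, 10.66, 10.40, 9.95 and 10.31 on control arrays, which overlapped at control DLP 4. Its difference was -0.46 ± 0.13 (SE). Manf, an ER stress-induced secreted factor, was at 9.61, 9.45, 9.51 and 9.61 on HFD and 9.81, 9.86, 9.81, 9.64 and 9.76 on control arrays. Manf was lower on every HFD array, by -0.23 ± 0.06 (SE) on average. Calr, a lectin chaperone, differed by -0.20 ± 0.06 (SE), Hyou1, a nucleotide exchange factor for Hspa5, by -0.37 ± 0.12 (SE), Edem1, which marks misfolded glycoproteins for degradation, by -0.38 ± 0.12 (SE), and Syvn1, the ubiquitin ligase of that route, by -0.22 ± 0.10 (SE). The higher gene was Asns, asparagine synthetase and a target of Atf4, at 0.24 ± 0.10 (SE). The other Atf4 targets Chac1 and Trib3 differed by 0.47 ± 0.27 (SE) and 0.27 ± 0.14 (SE) and did not reach that p. Xbp1, a transcription factor of the response, differed by -0.02 ± 0.05 (SE), and Canx by -0.03 ± 0.05 (SE). When control DLP 2, 4 and 5 were left out, 9 of the 28 were lower and none higher, with a median of -0.10. With any 1 array left out, 6 to 10 were lower.

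The ER stress element, CCAAT and CCACG with 9 bases of any kind between them on either strand, was found in the promoter window of 8 of 25 genes of this list (32%) and of 37 of all 27025 genes (0.137%). Neither this share nor those of the other motifs used the diet difference, so they do not test it. The 8 genes did not move as one: Hspa5, Hsp90b1, Calr and Syvn1 were lower at an unadjusted p under 0.05, while Creld2 differed by -0.29, Dnajc3 by -0.13, Canx by -0.03 and Pdia6 by 0.03. Dnajc3 also had 4 other probe sets that were lower at that p, by -0.34 to -0.22. The windows of 3 of the lower genes are shown, with each match in capitals. That of Hspa5 is chr2:34771840-34772139 on the plus strand, that of Hsp90b1 is chr10:86705395-86705694 on the minus strand, and that of Calr is chr8:84846882-84847181 on the minus strand of GRCm38.p6 in RefSeq. Hsp90b1 holds 2 matches and the others 1, and none overlapped a match of another motif searched here.
Hspa5: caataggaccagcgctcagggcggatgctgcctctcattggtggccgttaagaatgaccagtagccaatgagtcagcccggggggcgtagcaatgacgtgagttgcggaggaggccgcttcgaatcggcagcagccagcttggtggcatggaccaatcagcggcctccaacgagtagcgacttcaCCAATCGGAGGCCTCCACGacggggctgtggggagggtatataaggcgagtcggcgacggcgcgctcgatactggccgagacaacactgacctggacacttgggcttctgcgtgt
Hsp90b1: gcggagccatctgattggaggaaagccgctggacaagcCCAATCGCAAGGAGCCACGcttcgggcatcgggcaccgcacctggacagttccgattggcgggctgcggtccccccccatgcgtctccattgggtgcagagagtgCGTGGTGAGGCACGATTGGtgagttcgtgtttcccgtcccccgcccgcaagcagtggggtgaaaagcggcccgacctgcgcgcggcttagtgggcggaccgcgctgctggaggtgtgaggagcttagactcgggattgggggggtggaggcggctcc
Calr: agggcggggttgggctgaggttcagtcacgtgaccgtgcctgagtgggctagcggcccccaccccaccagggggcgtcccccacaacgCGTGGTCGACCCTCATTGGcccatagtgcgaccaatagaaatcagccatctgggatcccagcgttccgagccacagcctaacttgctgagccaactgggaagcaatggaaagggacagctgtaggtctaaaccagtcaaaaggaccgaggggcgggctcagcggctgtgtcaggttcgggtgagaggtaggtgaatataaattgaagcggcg

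The list of cytosolic heat shock proteins also holds Hspd1 and Hspe1, which are mitochondrial. Of its 22 genes, 4 were lower and none higher at an unadjusted p under 0.05, against 3.96% lower over all genes. With any 1 array left out, 4 to 8 were lower and the median ranged from -0.21 to -0.10. The mean was lower on HFD for 19 of the 22, and the median was -0.11. Hsph1, a nucleotide exchange factor of the Hsp70 cycle, was at 5.86, 5.20, 5.46 and 5.60 on HFD arrays, against 6.03, 6.15, 6.02, 5.99 and 6.29 on control arrays. Every control array was higher, the difference was -0.57 ± 0.11 (SE) with limma's adjusted p of 0.18, and the second probe set gave -0.50. Hsp90aa1, the inducible Hsp90, was at 8.40, 8.11, 8.54 and 8.41 on HFD and 8.68, 9.15, 8.67, 8.68 and 8.96 on control arrays. It too was lower on every HFD array, by -0.46 ± 0.11 (SE), and its 3 probe sets ranged from -0.63 to -0.43. Hspd1, the mitochondrial Hsp60, differed by -0.29 ± 0.08 (SE) and Hspa4l by -0.21 ± 0.08 (SE), although the 5 Hspa4l probe sets disagreed in sign.

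The stress-inducible Hsp70 genes did not separate the diets. Hspa1a was at 4.38, 3.79, 4.84 and 3.83 on HFD and 5.75, 5.37, 3.72, 5.90 and 3.65 on control arrays, and its near-identical copy Hspa1b was also highest on control DLP 1 and 4. Control DLP 1, 2 and 4 were high for Hspa1a, whereas control DLP 3 and 5 were as low as HFD. Dnajb1, their co-chaperone, differed by -0.29 ± 0.23 (SE). The 8 subunits of the TRiC chaperonin, which folds actin and tubulin, each had a lower mean on HFD, by 0.01 to 0.13 in size. None reached an unadjusted p under 0.05 on its probe set with the highest mean. The subunit Cct4 had 2 other probe sets at that p, lower by -0.41 and -0.32, both with separate groups. On the other 6 arrays, 4 of the 22 were lower, the list median was -0.18, and Hsph1 differed by -0.49 ± 0.15 (SE).

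The heat shock element, GAA, TTC and GAA with 2 bases of any kind between each, was found on either strand in 4 of 19 genes of the list with a window (21.1%) and in 0.662% of all genes. The 4 were Hsph1, Hspd1, Hspe1 and Chordc1, the last 2 at differences of -0.08 and -0.12. The windows of Hspd1 and Hspe1 overlap on opposite strands, and their matches are the same bases. The Hsph1 window, chr5:149636266-149636565 on the minus strand of GRCm38.p6, is shown as that of the member with the smallest p, and its match in capitals is the motif read on the opposite strand, from position 15 after the start site.
Hsph1: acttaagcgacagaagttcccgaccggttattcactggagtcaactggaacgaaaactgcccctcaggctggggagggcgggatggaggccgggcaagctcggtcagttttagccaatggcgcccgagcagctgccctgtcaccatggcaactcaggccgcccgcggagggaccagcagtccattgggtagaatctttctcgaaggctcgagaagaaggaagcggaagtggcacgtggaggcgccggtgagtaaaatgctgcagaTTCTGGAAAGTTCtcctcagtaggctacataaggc

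**Figure D3:**
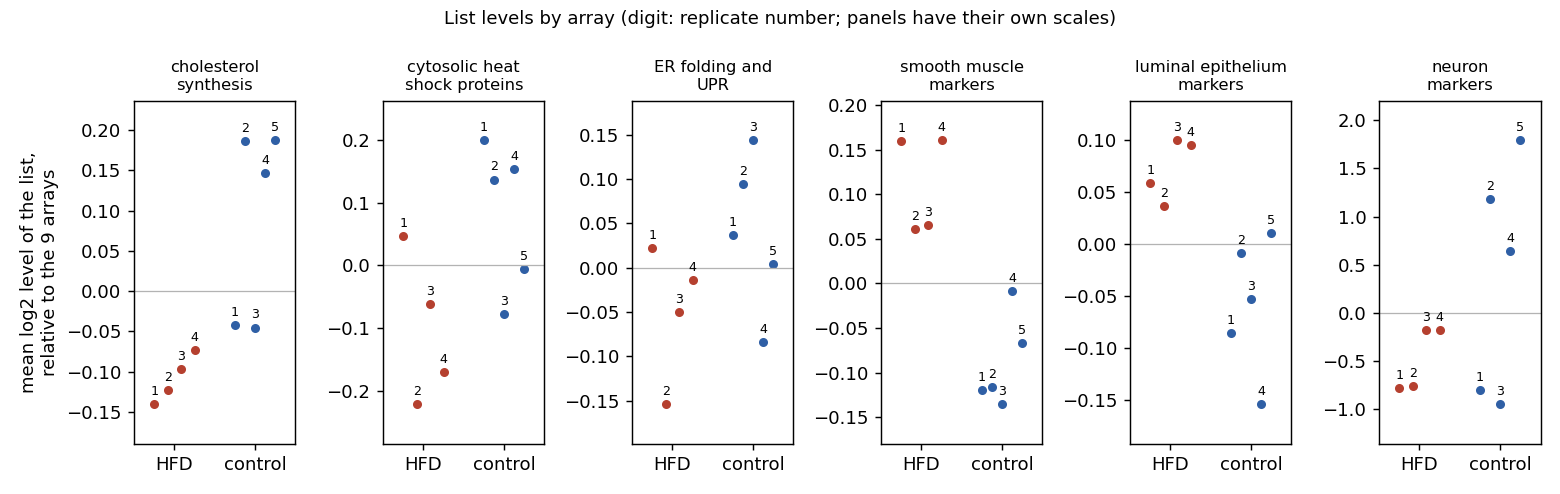
Mean log2 level of 6 gene lists on each dorsolateral array relative to the 9 arrays, with HFD in red on the left, control in blue on the right and the replicate number above each point; each panel has its own scale. Cholesterol enzymes lie between -0.14 and -0.07 on HFD arrays, and the high control arrays 2, 4 and 5 of that panel are also the high ones for neuronal markers.

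Smooth muscle markers, proteins of the contractile apparatus and its anchors, differed in one direction. All 16 that passed the filter had a higher mean, 12 of them at an unadjusted p under 0.05 against 5.67% of all genes, and the list median was 0.20. Cnn1, calponin, was at 8.24, 8.15, 8.33 and 8.31 on HFD arrays, against 7.92, 7.85, 7.92, 8.19 and 7.81 on control arrays. Control DLP 4 reached into the HFD range, and the difference was 0.32 ± 0.07 (SE), with limma's adjusted p of 0.31. Myh11, the smooth muscle myosin, was at 8.90, 8.81, 8.67 and 8.83 on HFD and 8.61, 8.63, 8.53, 8.43 and 8.53 on control arrays, apart from each other, with a difference of 0.26 ± 0.06 (SE). Synm, a filament protein, differed by 0.28 ± 0.07 (SE), Actg2 by 0.28 ± 0.08 (SE), Des, desmin, by 0.27 ± 0.10 (SE), Tagln by 0.20 ± 0.05 (SE) and Acta2 by 0.16 ± 0.06 (SE).

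The list level was 0.16, 0.06, 0.07 and 0.16 on HFD arrays and -0.12, -0.12, -0.14, -0.01 and -0.07 on control arrays, without overlap. Without control DLP 2, 4 and 5, 12 of 16 were higher and the median was 0.23. With any 1 array left out between 8 and 12 were higher, the fewest without control DLP 2. The fits of all 19 arrays gave 4 higher with 1 shared spread and 9 with 1 weight per lobe. In bulk tissue, more cells of a type and more RNA per cell cannot be told apart, nor can fewer cells and less RNA. In VP the list median was 0.15.

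Luminal and basal markers of the epithelium were compared next. All 9 luminal markers tested had a higher mean on HFD, with a median of 0.14. At an unadjusted p under 0.05, 4 of them were higher, against 5.67% of all genes. That count was 2 or 3 with any 1 array left out, 2 in the fits of all 19 arrays, and 3 on the remaining 6 arrays. Krt8, a luminal keratin, was at 8.27, 8.26, 8.44 and 8.37 on HFD and 8.06, 8.18, 8.09, 8.10 and 8.23 on control arrays. The groups were just apart, with a difference of 0.20 ± 0.06 (SE). Krt18 and Krt19 differed by 0.16 ± 0.07 (SE) and 0.24 ± 0.10 (SE), and Epcam by 0.14 ± 0.05 (SE), although the second Epcam probe set gave -0.34. Of 6 basal markers, 4 had a higher mean and the median was 0.07. None was higher and 2 were lower at an unadjusted p under 0.05, against 3.96% lower over all genes. They were the keratin Krt15 at -0.32 ± 0.14 (SE) and the transcription factor Trp63 at -0.23 ± 0.10 (SE), whose second probe set gave 0.16. The count of lower basal markers was 0 to 2 with any 1 array left out and 0 in the fits of all 19 arrays, and on the remaining 6 arrays it was 2 with a median of -0.03. Krt5 and Krt14, the defining basal keratins, differed by 0.08 ± 0.10 (SE) and 0.07 ± 0.14 (SE).

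Matrix genes did not share a direction. Of 27 tested, 3 were higher and 2 lower at an unadjusted p under 0.05, against 5.67% higher and 3.96% lower over all genes. Fn1, fibronectin, was at 6.34, 6.50, 6.38 and 6.72 on HFD and 6.31, 6.19, 6.10, 6.17 and 6.08 on control arrays, without overlap, a difference of 0.32 ± 0.08 (SE). Timp3, an inhibitor of matrix proteases, differed by 0.25 ± 0.06 (SE), with 1 of its 4 probe sets at -0.08, and Postn, periostin, by 0.42 ± 0.13 (SE), both with separate groups. The fibrillar collagens Col3a1 and Col5a1 differed by -0.43 ± 0.15 (SE) and -0.29 ± 0.11 (SE), with control DLP 1 the highest array for both. The remaining 6 arrays gave 3 higher and 3 lower, and the fits of all 19 arrays none higher and 2 lower.

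Neuronal genes depended on 3 arrays. Of 22 markers on the array, 17 passed the filter, and all 17 had a lower mean on HFD, with a median of -0.88, yet 1 reached an unadjusted p under 0.05 and no groups were apart. With any 1 array left out, the lower count ranged from 0 to 12, most without control DLP 1 or 3, and the median from -1.25 to -0.51. The fits of all 19 arrays gave 7 lower with 1 shared spread and 9 with 1 weight per lobe. Stmn2, a neuronal microtubule regulator, was at 2.54, 2.64, 2.91 and 3.04 on HFD and 2.75, 4.73, 2.53, 4.21 and 5.32 on control arrays. Vip, a neuropeptide of pelvic autonomic nerves, was at 1.94, 2.10, 3.42 and 3.09 on HFD and 2.14, 7.38, 1.50, 5.86 and 6.47 on control arrays. For both genes control DLP 2, 4 and 5 were high, and control DLP 1 and 3 lay within or below the HFD range. The summed level of the 17 markers ranged from 5.96 to 6.77 on HFD and from 5.72 to 9.11 on control arrays. Without those 3 arrays all 17 had a higher mean on HFD, 6 of them at an unadjusted p under 0.05, with a median of 0.36.

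Clock genes, which drive daily rhythms of transcription, differed in both directions. Of 16 tested, 10 had a higher mean, the median was 0.04, and it ranged from -0.01 to 0.11 with any 1 array left out. At an unadjusted p under 0.05, 5 were higher, against 5.67% of all genes, and 1 was lower, against 3.96%. Among the higher ones 4 had separate groups, whereas 2.07% of all genes were higher without overlap. The labels do not give the hour at which the lobes were taken. Dbp, a transcription factor driven directly by the clock, was at 5.54, 5.14, 5.62 and 5.55 on HFD arrays, against 4.88, 4.75, 4.62, 5.09 and 4.39 on control arrays. The lowest HFD array lay just above the highest control array, and the difference was 0.71 ± 0.13 (SE), with limma's adjusted p of 0.16. The second probe set had a log2 difference of 0.63.

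The repressors Per2 and Per3 differed by 0.49 ± 0.13 (SE) and 0.26 ± 0.09 (SE), and the repressor Ciart by 0.35 ± 0.11 (SE), with a control mean below the array median. Hlf, a relative of Dbp, differed by 0.36 ± 0.16 (SE), and Nfil3, which represses the sites Dbp activates, by -0.44 ± 0.16 (SE). The core activators Clock and Arntl differed by -0.11 ± 0.07 (SE) and -0.15 ± 0.16 (SE), and Nr1d1 by 0.04 ± 0.13 (SE). Without control DLP 2, 4 and 5, 2 genes were higher and 1 lower, and with any 1 array left out 3 to 5 were higher. The E-box CACGTG, which the Clock and Arntl pair binds, was found in the windows of 4 of 14 clock genes (28.6%), namely Per1, Cry1, Tef and Ciart, and of 8.09% of all genes. The Ciart window, chr3:95882179-95882478 on the minus strand of GRCm38.p6, is shown because it holds 3 E-boxes, in capitals.
Ciart: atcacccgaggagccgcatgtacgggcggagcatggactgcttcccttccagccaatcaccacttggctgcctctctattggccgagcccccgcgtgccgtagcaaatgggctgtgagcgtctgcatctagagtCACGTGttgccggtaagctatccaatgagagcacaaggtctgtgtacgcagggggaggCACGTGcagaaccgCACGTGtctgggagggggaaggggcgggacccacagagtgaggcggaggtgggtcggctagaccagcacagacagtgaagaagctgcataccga

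Androgen signalling genes were lower in 4 of 14 tested and higher in none at an unadjusted p under 0.05, against 3.96% lower over all genes. The list median was -0.10. Zbtb16, a zinc finger repressor, was at 5.14, 5.16, 5.16 and 4.94 on HFD and 5.32, 5.50, 5.60, 5.35 and 5.58 on control arrays, apart from each other. Its difference was -0.37 ± 0.08 (SE), with limma's adjusted p of 0.23, and all 3 probe sets were lower. Steap4, a metalloreductase, differed by -0.40 ± 0.16 (SE), the kinase Sgk1 by -0.37 ± 0.16 (SE) and Tsc22d3 by -0.28 ± 0.08 (SE). Zbtb16, Sgk1 and Tsc22d3 are also known targets of the glucocorticoid receptor. Fkbp5, a target of both receptors, differed by -0.16 ± 0.10 (SE), and Azgp1 and Tmprss2, androgen-responsive genes of the prostate, by 0.09 ± 0.07 (SE) and -0.09 ± 0.06 (SE). Without control DLP 2, 4 and 5, 1 of the 14 was lower, and with any 1 array left out 2 to 5 were.

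The secretory products of the lobe were among the highest values on the arrays. Of 12 dorsolateral secretory genes, 1 was lower at an unadjusted p under 0.05, Pate14 at -0.25 ± 0.10 (SE), and none was higher. Over all genes, 3.96% were lower and 5.67% higher. That list includes Spink1, although Spink1 averaged higher in VP. The remaining 6 arrays gave 3 higher and 2 lower. Tgm4, the prostate transglutaminase, was at 12.73, 12.59, 12.59 and 12.73 on HFD and 12.59, 12.31, 12.31, 12.73 and 12.73 on control arrays. Pbsn, probasin, was at 12.48, 12.38, 12.73 and 12.59 on HFD and 12.73, 12.73, 12.38, 12.48 and 12.59 on control arrays. Both sat among the top few ranks of every array, where the same few values recur, so differences there cannot be resolved. Pigr, which carries immunoglobulin into secretions and is far higher in VP, was at 5.25, 6.38, 4.99 and 5.67 on HFD and 7.43, 6.51, 6.16, 6.04 and 6.35 on control arrays, a difference of -0.92 ± 0.29 (SE) with overlap at HFD DLP 2. The summed level of the 5 ventral genes tested ranged from 6.00 to 7.79 on HFD and from 6.92 to 7.82 on control arrays, and its part in the Pigr difference was not tested.

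The immunoglobulin genes depended on which control arrays were used. Jchain, which joins secreted antibodies, was at 3.86, 4.16, 4.13 and 4.31 on HFD and 4.39, 3.04, 3.04, 2.63 and 2.97 on control arrays. Control DLP 1 alone reached the HFD level. The difference was 0.90 ± 0.27 (SE) with limma's adjusted p of 0.36, and without control DLP 1 it was 1.19 ± 0.12 (SE) with limma's adjusted p of 0.0078. On the remaining 6 arrays, which keep control DLP 1, it was 0.40 ± 0.29 (SE) with limma's adjusted p of 0.71. Ighm, the IgM heavy chain, differed by 0.97 ± 0.37 (SE), with 1 of its 3 probe sets at 0, and Ms4a1, a B cell surface protein, by -0.39 ± 0.14 (SE) with its HFD mean below the array median. On the remaining 6 arrays Ighm differed by 0.10 ± 0.25 (SE), with limma's adjusted p of 0.93, and the median of these 3 genes was 0.10, against 0.90 with all arrays. Among 11 macrophage markers none reached an unadjusted p under 0.05, with all 9 or the remaining 6 arrays, and Lyz2, lysozyme, ranged from 3.89 to 4.68 on HFD arrays and reached 6.22 on control DLP 1.

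Fat cell markers were sparse. Of 10 adipocyte genes on the array, 5 passed the filter, and their summed level ranged from 6.13 to 6.39 on HFD and from 5.97 to 6.70 on control arrays. Car3, a carbonic anhydrase of fat and muscle, was at 2.18, 1.71, 1.69 and 1.34 on HFD and 3.18, 2.14, 2.01, 4.05 and 2.34 on control arrays. Its difference was -1.01 ± 0.35 (SE), with overlap and an HFD mean below the array median. The remaining 6 arrays also gave 1 adipocyte gene lower and none higher. The part of fat cells in the Gpx3 difference was not tested. Of 22 genes of insulin and IGF signalling, 2 were higher and none lower at an unadjusted p under 0.05, against 5.67% higher over all genes. Both encode IGF binding proteins, Igfbp5 at 0.31 ± 0.08 (SE), whose second probe set gave -0.01, and Igfbp7 at 0.31 ± 0.11 (SE). Another binding protein, Igfbp4, differed by -0.35 ± 0.19 (SE), with its 5 probe sets from -0.35 to -0.02, and did not reach that p. The remaining 6 arrays gave 4 higher and 1 lower in this list. None of 29 oxidative phosphorylation genes reached an unadjusted p under 0.05, with differences from -0.11 to 0.14. The remaining 6 arrays gave 1 lower.

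Genes measured by several probe sets gave a check on single probe sets, made after their values were seen. Of 5042 such genes, 136 had more than 1 probe set at an unadjusted p under 0.05 with the same sign. Fmo2, a flavin monooxygenase, was at 5.74, 5.59, 5.78 and 5.77 on HFD and 5.52, 4.99, 5.21, 5.45 and 5.22 on control arrays, and its 4 probe sets differed by 0.25 to 0.44. Fmod, a collagen-binding matrix protein, was higher on all 6 probe sets, by 0.07 to 0.36. Csrp1, a smooth muscle LIM protein, was higher on both, by 0.22 and 0.32, and Dnaic1, an axonemal dynein chain, by 0.36 and 0.39. Luc7l2, a splicing factor, was higher on 6 of 7, from -0.05 to 0.23.

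The diet difference was compared between the lobes in a fit of all 19 arrays, which treated DLP and VP arrays as independent. The labels do not say whether a mouse gave both lobes, so the errors of the lobe difference are uncertain. The diet difference was unequal between lobes for 1 probe set at limma's adjusted p of 0.05 (0.00437%), and for 1976 at an unadjusted p under 0.05 (8.63%). That probe set belonged to Akr7a5, an aldehyde reductase. In DLP it was at 4.86, 4.67, 4.69 and 4.80 on HFD and 4.81, 4.85, 4.80, 4.94 and 5.19 on control arrays, a difference of -0.16 ± 0.08 (SE) with overlap. In VP it averaged 4.78 on HFD and 4.08 on control arrays, a difference of 0.70 ± 0.10 (SE). The lobe difference was -0.86 ± 0.13 (SE) with limma's adjusted p of 0.046, and the second probe set differed by 0.05 in DLP. With each of the 19 arrays left out in turn the lobe difference ranged from -0.92 to -0.79, and it missed the threshold in 13 of 19 cases, with adjusted p up to 0.10 in limma. Syne4, which anchors nuclei to microtubule motors, differed by -0.37 in DLP and 0.52 in VP, and Gtf2f2, a general transcription factor subunit, by 0.21 in DLP and -0.38 in VP, both with limma's adjusted p of 0.11 for the lobe difference.

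For the genes with the smallest p in DLP, the lobe difference did not pass limma's adjusted threshold, so none is shown to be particular to the dorsolateral lobe. Perp differed by 0.38 ± 0.08 (SE) in DLP and -0.29 ± 0.14 (SE) in VP, and limma gave the difference between lobes an adjusted p of 0.27. For Ncald, at -0.54 in DLP and 0.02 in VP, that p was 0.17, for Nudcd2, at 0.34 and -0.11, it was 0.15, and for Slco2a1, at 0.82 and 0.20, it was 0.41. Srebf1 differed by 0.18 in DLP and 0.59 in VP, and limma gave their difference an adjusted p of 0.30. Fdps, at -0.65 in DLP and -0.42 in VP, had the same sign in both lobes.

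**Figure D4:**
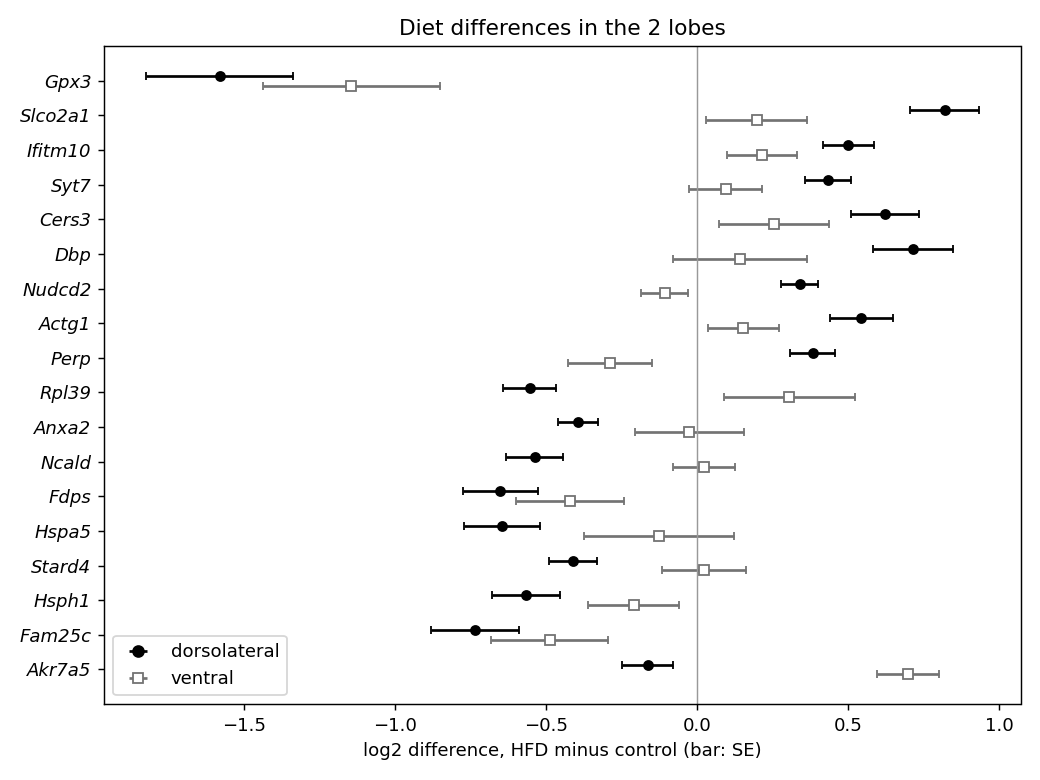
Log2 difference, HFD minus control, with its SE for 18 named genes in the dorsolateral lobe (filled circles) and the ventral lobe (open squares). Gpx3 is lowest in both lobes, at -1.58 and -1.14, and Akr7a5 lies at -0.16 in the dorsolateral and 0.70 in the ventral lobe.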

How the data were processed

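Total RNA of mouse prostate lobes was biotin-labelled and hybridised to 3′ expression arrays, 1 sample per array, per the labels' protocols. The deposited values were read as log10, and the submitters' processing notes name MAS5 without a version. The log base was inferred here from the hybridization controls bioB, bioC, bioD and cre. Their deposited steps were 0.50, 0.62 and 0.99, against 0.52, 0.70 and 0.60 in log10 of the nominal concentrations. The last step was thus larger than nominal, and the size of every difference and fold depends on this base. Every array held one and the same set of values, which means that rank alone fixes a level, and a change shared by most genes could not be seen. Values were multiplied to the log2 scale.

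Probe sets were named through the platform annotation, with symbols updated through RefSeq, and each gene was given by its probe set with the highest DLP mean. limma 3.58.1 in R 4.3.3 was fitted to the 9 DLP arrays with a mean-variance trend and no covariate, with Benjamini-Hochberg adjustment over 22901 probe sets. The difference between lobes was tested on 19 arrays with 1 weight per lobe. The fits were tested on simulated data. Their precision is limited by the number of arrays.

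Named genes were Gpx3, the 10 genes per direction with the smallest p, the 10 per direction with the largest difference among genes with separate groups and a higher mean above the array median, the 3 with the smallest p for the difference between lobes, and up to 3 per list. Other members of lists, and the genes with agreeing probe sets, were named after their values were seen. The members and lists were chosen with earlier results of these data known. Replicate numbers gave no sign of pairing HFD with control DLP arrays: the correlations of same-numbered arrays were 0.01, 0.16, -0.14 and -0.11. Whether DLP and VP arrays with the same number came from the same mouse is not given by the labels and was not tested. Promoter windows came from RefSeq, build GRCm38.p6. Alternatives changed the arrays, weights, offset, filter, test and choice of probe set.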

Additional observations from a re-analysis of the deposited data

Results flagged for a closer look

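Among 184 groups of arrays over 92 genes, 14 had an array that stood far from the rest of its group by Dixon's test, and among 76 groups of list levels 4 did, where chance gives about 1 in 20. On HFD arrays, replicate 2 was high for Anxa2 at 6.00 and Ncaph at 3.78 and low for Dbp at 5.14, replicate 3 was high for Ccl5 at 2.38 and Hspd1 at 7.32, replicate 4 was low for Mgst2 at 2.75 and Zbtb16 at 4.94, and replicate 1 was low for Luc7l2 at 6.68. On control arrays, replicate 1 was high for Jchain at 4.39 and low for Postn at 4.96, replicate 3 was high for Rpl39 at 3.95, replicate 4 was high for Csrp1 at 8.58 and Snx16 at 5.53, and replicate 5 was high for Krt19 at 9.11. By list, HFD DLP 2 was high in dorsolateral secretory genes at 0.31 and in ventral lobe genes at 1.00. The first of these lists includes Spink1, which was at 11.58 on that array and averaged higher in VP than in DLP. The part of Spink1 in that list level was not tested. Control DLP 2 was high in cell cycle genes at 0.29 and control DLP 1 in acute phase genes and cytokines at 0.85.

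The diet difference of Akr7a5 differed between the lobes by -0.86, DLP minus VP, with limma's adjusted p of 0.046.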

How the results depend on the processing

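The count of probe sets past limma's adjusted p was 0 with all 9 arrays and equal weights, 2 at an adjusted p of 0.10, 15 with 1 weight per lobe, 2 with robust eBayes, and 0 to 2 with 1 array left out. Without control DLP 2, 4 and 5, an alternative chosen after seeing the data, it was 3. That alternative keeps only control DLP 1 and 3 as controls. It leaves out the lowest and highest control values of Gpx3, 6.60 and 8.28. Gpx3 was lower in every fit: it passed with 1 weight per lobe (-1.58, adjusted p = 0.021), without control DLP 2 (-1.77, adjusted p = 0.049), without control DLP 5 (-1.35, adjusted p = 0.027) and without control DLP 2, 4 and 5 (-1.59, adjusted p = 0.005), and in the others its adjusted p lay between 0.098 and 0.36. With 1 array left out its difference ranged from -1.77 to -1.35. The count for the difference between lobes was 1, against 2 with equal weights, 0 without a trend, 0 with the offset raised by 16, 0 with no filter on low values, and 0 to 4 with 1 array left out. The replicate block joined arrays of the same number across diets and, for the lobe difference, also across lobes. With it 0 probe sets passed, Gpx3 was at -1.59 (limma's adjusted p = 0.18) and the lobe difference counted 1. Averaged over probe sets, Epcam was at -0.10 and Hadh at -0.10, against 0.14 and 0.12 on the main probe sets. Without control DLP 2, 4 and 5, Stmn2 was at 0.14, Uchl1 at 0.28 and Vip at 0.82, where all 9 arrays put them below 0. Of 1899 values of the 91 other named genes under these settings, 1894 kept their sign. Settings that change only the lobe weight, the spread, the trend or the filter leave each difference, that of Gpx3 included, as it was. The sign could not change there, and many of these genes were picked for their difference on these same arrays. The count is therefore no test of the differences. Among 797 list medians 54 changed sign. The cause was not tested.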
